A study of Mus musculus with 8 samples.

Results

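Trimethylation of histone H3 at lysine 27 (H3K27me3), the mark that Polycomb repressive complex 2 deposits on silent genes, was described over 5 homeobox genes, the ParaHox genes Gsx1, Gsx2, Pdx1 and Cdx2 and the related Cdx4. Members were the intervals of the count table whose span best matched one of these genes, with shared bases making up 0.5 or more of their union (RefSeq, GRCm38.p6, which mm10 stands for). Each gene had a single such interval, giving 5 of 50398 intervals and 5 of 20227 named genes.

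The libraries came from mouse embryonic stem cells of the male line E14tg2a (129SV background) that stably carried cRAF-ErT2, a RAF kinase switched on by 4-hydroxytamoxifen (4OHT) to drive ERK signalling. All groups were kept in serum and LIF throughout. The GSK3 inhibitor Chir99021 (2 µM) was present first, and was replaced for the last 24 h by the FGF receptor inhibitor PD173074 (250 nM). The treated group had 2 h of 250 nM 4OHT and the untreated group (0 h) had none, and each held 1 library of clone A and 1 of clone B. The 2 clones derive from the same line, so they limit how far the values reach beyond it.

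ParaHox genes are the sister group of the Hox genes, and encode homeodomain transcription factors that give cells regional identity along the body axis, the gut and the brain. In embryonic stem cells such regulators are commonly held silent under H3K27me3 until a lineage is chosen. Gsx1 and Gsx2 pattern progenitors of the ventral forebrain and of spinal interneurons. Pdx1 is required for the pancreas and patterns the duodenum. Cdx2 specifies trophectoderm, then the posterior body axis and the intestine, and Cdx4 acts with it in axis elongation and in early blood formation.

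Of the 5 genes, 4 lie on chromosome 5 and 1 on the X chromosome, all annotated as protein-coding. In mm10, Gsx1 spans chr5:147188696-147190947 and Cdx2, on the minus strand, chr5:147300900-147307249. The interval of Pdx1, which lies between them, is chr5:147270131-147275149, against a RefSeq span of 147270097 to 147275848, an overlap over union of 0.873. Gsx2 stands apart on the same chromosome at chr5:75075601-75077893, and Cdx4 is at chrX:103321398-103330224. Each interval runs over the whole gene with its introns, from 2252 bp for Gsx1 to 8827 bp for Cdx4.

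Promoters of 4 members are shown from RefSeq (GRCm38.p6, 250 bases before to 50 after the start, 5′ to 3′ on the gene's strand), because Polycomb marking in stem cells is known to centre on CpG-rich starts. Capitals mark CpG dinucleotides. They are Gsx1 with the most CpGs (chr5:147188446-147188745, plus strand), Pdx1 (chr5:147269847-147270146, plus strand), Cdx2 (chr5:147307200-147307499, minus strand) and Cdx4 with the fewest (chrX:103321148-103321447, plus strand).
Gsx1: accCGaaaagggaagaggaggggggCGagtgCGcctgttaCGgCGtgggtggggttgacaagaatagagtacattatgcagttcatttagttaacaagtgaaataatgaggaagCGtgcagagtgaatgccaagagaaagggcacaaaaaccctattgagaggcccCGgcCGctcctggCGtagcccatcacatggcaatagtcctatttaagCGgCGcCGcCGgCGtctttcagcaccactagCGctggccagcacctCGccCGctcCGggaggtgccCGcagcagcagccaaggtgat
Pdx1: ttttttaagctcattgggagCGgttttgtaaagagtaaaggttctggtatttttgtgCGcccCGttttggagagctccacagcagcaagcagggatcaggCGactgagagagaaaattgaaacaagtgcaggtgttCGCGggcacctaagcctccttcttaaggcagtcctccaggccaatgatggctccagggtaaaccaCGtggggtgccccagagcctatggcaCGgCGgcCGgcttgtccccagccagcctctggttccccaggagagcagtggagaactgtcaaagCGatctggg
Cdx2: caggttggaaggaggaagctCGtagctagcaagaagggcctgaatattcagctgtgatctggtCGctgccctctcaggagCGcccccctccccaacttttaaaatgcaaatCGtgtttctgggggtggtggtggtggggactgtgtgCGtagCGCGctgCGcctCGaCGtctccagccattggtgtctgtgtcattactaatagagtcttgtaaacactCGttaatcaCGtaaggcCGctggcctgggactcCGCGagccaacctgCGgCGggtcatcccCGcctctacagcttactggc
Cdx4: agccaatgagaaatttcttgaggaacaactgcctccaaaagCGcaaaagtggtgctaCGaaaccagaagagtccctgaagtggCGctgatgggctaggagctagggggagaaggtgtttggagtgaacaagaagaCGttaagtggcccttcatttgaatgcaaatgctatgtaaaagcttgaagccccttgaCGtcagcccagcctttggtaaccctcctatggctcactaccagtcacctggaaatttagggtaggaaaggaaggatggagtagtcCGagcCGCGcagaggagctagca

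CpG content varied widely among the members. The Gsx1 promoter held 19 CpGs, Cdx2 18, Gsx2 17, Pdx1 11 and Cdx4 8, against a median of 7 over 32851 RefSeq promoters (quartiles 3 and 20). The ratio of observed to expected CpGs was 0.789 for Gsx1, 0.731 for Cdx2, 0.575 for Gsx2, 0.485 for Pdx1 and 0.433 for Cdx4, against a median of 0.384. In Cdx2, 13 of the 18 lay in the 150 bases nearest the gene.

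Short motifs were searched on both strands. TTTAT, the core bound by Cdx proteins, was found in 1 member, Gsx2, where the match lies inside TATAAA, and in 40.0% of all promoters. CTTTGA, a TCF and LEF core, was found in Pdx1 alone, and in 16.0% of all promoters. The octamer ATGCAAAT, bound by POU factors and searched after the sequences were seen, occurred in Cdx2 and in Cdx4, and in 1.74% of all promoters.

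The first question was how much H3K27me3 each gene carried. All 5 were heavily marked, Cdx2 most and Cdx4 least. Levels are densities, in counts per kb of interval per 1000000 counts of the library's column total, and each is set against the median named gene (0.357). A gene counted as marked at 4 times that median or more. All 5 members were marked, where 5.78% of all named genes were, 5.72% of coding genes of at least 1000 bp and 14.5% of coding genes of 2000 to 9000 bp. At 2 times the median, 18.9% of named genes passed. At 8 times the median, 4 of the 5 still passed, against 1.99% of named genes.

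Cdx2 had a density of 5.50 and 4.78 in clones A and B at 2 h, against 5.58 and 4.55 at 0 h. Its mean over 4 libraries was 5.10 ± 0.514 (SD), 14.3 times the median gene. It ranked 13 among 12395 coding genes of at least 1000 bp, and between 12 and 17 in the single libraries.

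Pdx1 measured 4.88 and 4.42 in clones A and B at 2 h, against 4.96 and 4.31 at 0 h. This gave a mean of 4.64 ± 0.324, 13.0 times the median gene. Its SD was the second smallest of the 5 members after that of Cdx4 (0.320). The mean of Cdx4 was lower (2.36), so relative to the mean the SD of Cdx4 was the larger.

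Gsx2 measured 4.77 and 4.22 in clones A and B at 2 h, against 5.11 and 4.06 at 0 h, with a mean of 4.54 ± 0.484. Gsx1 measured 4.72 and 3.86 in clones A and B at 2 h, against 4.48 and 3.51 at 0 h, with a mean of 4.14 ± 0.556. They stood at 12.7 and 11.6 times the median gene. In both genes the clone A library was the higher at each time, and the 2 h and 0 h values overlapped.

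Cdx4 measured 2.41 and 2.06 in clones A and B at 2 h, against 2.79 and 2.19 at 0 h. Its mean of 2.36 ± 0.320 was 6.62 times the median gene and ranked 316 among the coding genes. It lay below each other member in every library.

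Neighbours in this order were close. Cdx2 exceeded Pdx1 in 4 of 4 libraries, by 1.06 to 1.13 times, but the gap of 0.463 was below the SD of Cdx2. Pdx1 exceeded Gsx2 in 3 of 4 libraries and Gsx2 exceeded Gsx1 in 4 of 4, with gaps of 0.101 and 0.397 that were also below the larger SD. Gsx1 exceeded Cdx4 in 4 of 4, by 1.60 to 1.96 times, a gap of 1.78 that was above the SD of either. These SDs include a difference between clones that the members shared, such as 5.54 in clone A and 4.67 in clone B for Cdx2. They do not measure the spread of the gaps within libraries. With 4 libraries a paired exact test cannot reach p = 0.05, so no test was run on the order. In a population of cells, more cells with the mark and more mark per cell cannot be told apart.

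**Figure D1:**
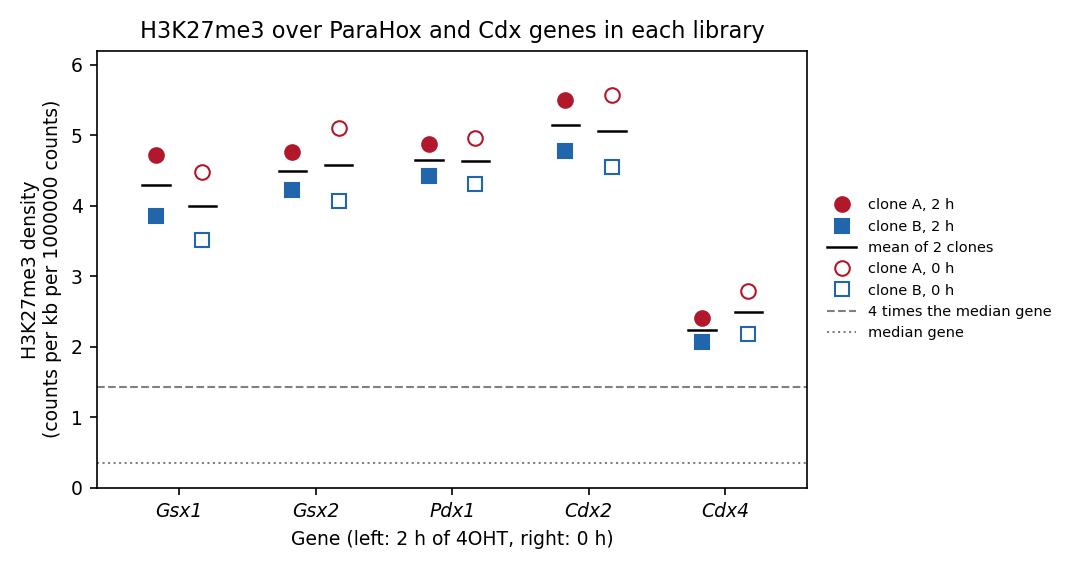
H3K27me3 density (counts per kb per 1000000 counts, y axis) of each ParaHox and Cdx gene, with 2 h of 4OHT to the left of 0 h. Red circles are clone A, blue squares clone B, bars the mean of 2 clones, and the dashed line 4 times the median gene. Cdx2 is the highest at 4.55 to 5.58 and Cdx4 the lowest at 2.06 to 2.79. On these column totals clone A lies above clone B in every pair. With factors taken from marked intervals and the times together, Pdx1 turned to −0.014 on the log2 scale. The single pairs were not rescaled with those factors.

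Cdx4 is the member on the X chromosome, which male cells carry in a single copy. The median density was 0.172 ± 0.00283 over 1163 X-linked named genes and 0.370 ± 0.00333 over 18994 autosomal ones (SD of the median over 4 libraries), a ratio of 0.466. Against the median of its own class, Cdx4 stood at 13.5 times, close to Cdx2 at 13.8, Pdx1 at 12.5, Gsx2 at 12.2 and Gsx1 at 11.2 times the median autosomal gene. It ranked 4 among 834 X-linked coding genes of at least 1000 bp. Among the denser were Sowahd and Gm715, at 7.21 and 6.82 times the median of all genes. The share of X-linked genes marked was 1.89%, against 6.02% of autosomal genes. The part of copy number in the level of Cdx4 was not tested.

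The mark was next followed through the surroundings of each gene. Within the cluster on chromosome 5 it was dense over the 3 ParaHox genes and sparser between them. From Gsx1 to Cdx2 the order along the chromosome was Gsx1 (11.6 times the median gene), Gm38751 (6.86), Plut (2.48), Pdx1 (13.0), Gm35112 (2.38) and Cdx2 (14.3). Plut is a long non-coding RNA transcribed away from Pdx1. Its interval of 42924 bp shares 1391 bp with that of Pdx1, so their counts are partly shared. Gm38750, inside Plut, stood at 2.11 times and the microRNA gene Mir7k, between Pdx1 and Gm35112, at 3.89 times.

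Past Cdx2, Urad, an enzyme of uric acid breakdown, stood at 5.63 times the median and Flt3, a receptor kinase of blood progenitors, at 2.03. Gm26597, a non-coding gene at the start of Flt3, stood at 11.6. D5Ertd605e, 111 kb from Cdx2, was back at 0.475. On the other side of the cluster, Gm34994 stood at 1.36 and the housekeeping gene Polr1d, an RNA polymerase subunit 77.3 kb from Gsx1, at 0.224. Lnx2 and Mtif3 beyond it measured 0.441 and 0.248.

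Gsx2 and Cdx4 were denser than each of the coding genes beside them. Around Gsx2, Chic2 stood at 0.379 times the median 31.0 kb away, and Gm19583, 32.4 kb to the other side, at 2.41. Pdgfra, a receptor of primitive endoderm and mesoderm, stood at 2.65 over its 46812 bp, but the 1541 bp at its start, taken as the difference of 2 nested intervals, stood at 14.0. An interval average can thus hold a dense start within a long gene. Further off, Gm6116 stood at 8.41, Gm32304 at 2.26, Gm15984 at 1.60 and Kit at 0.398, with Mir7025, of 74 bp within Pdgfra, at 4.89.

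Cdx4 lies beside the X inactivation centre. Its neighbours Chic1 (0.177), Tsx (0.889), Tsix (0.211) and Xist (0.285) were all below the median gene. Tsix and Xist overlap on opposite strands, so their counts are partly shared. On the other side 4930519F16Rik stood at 0.751, Nap1l2 at 2.32, Gm39529 at 1.56 and Gm5126, 387 kb away, at 4.85. In all, 6 of the 29 neighbours were marked, beside 5.78% of all named genes. Of the 12 coding neighbours 1, Urad, was marked, beside 5.72% of coding genes of at least 1000 bp. The 6 include Mir7025, whose 74 bp hold few counts and share them with Pdgfra.

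**Figure D2:**
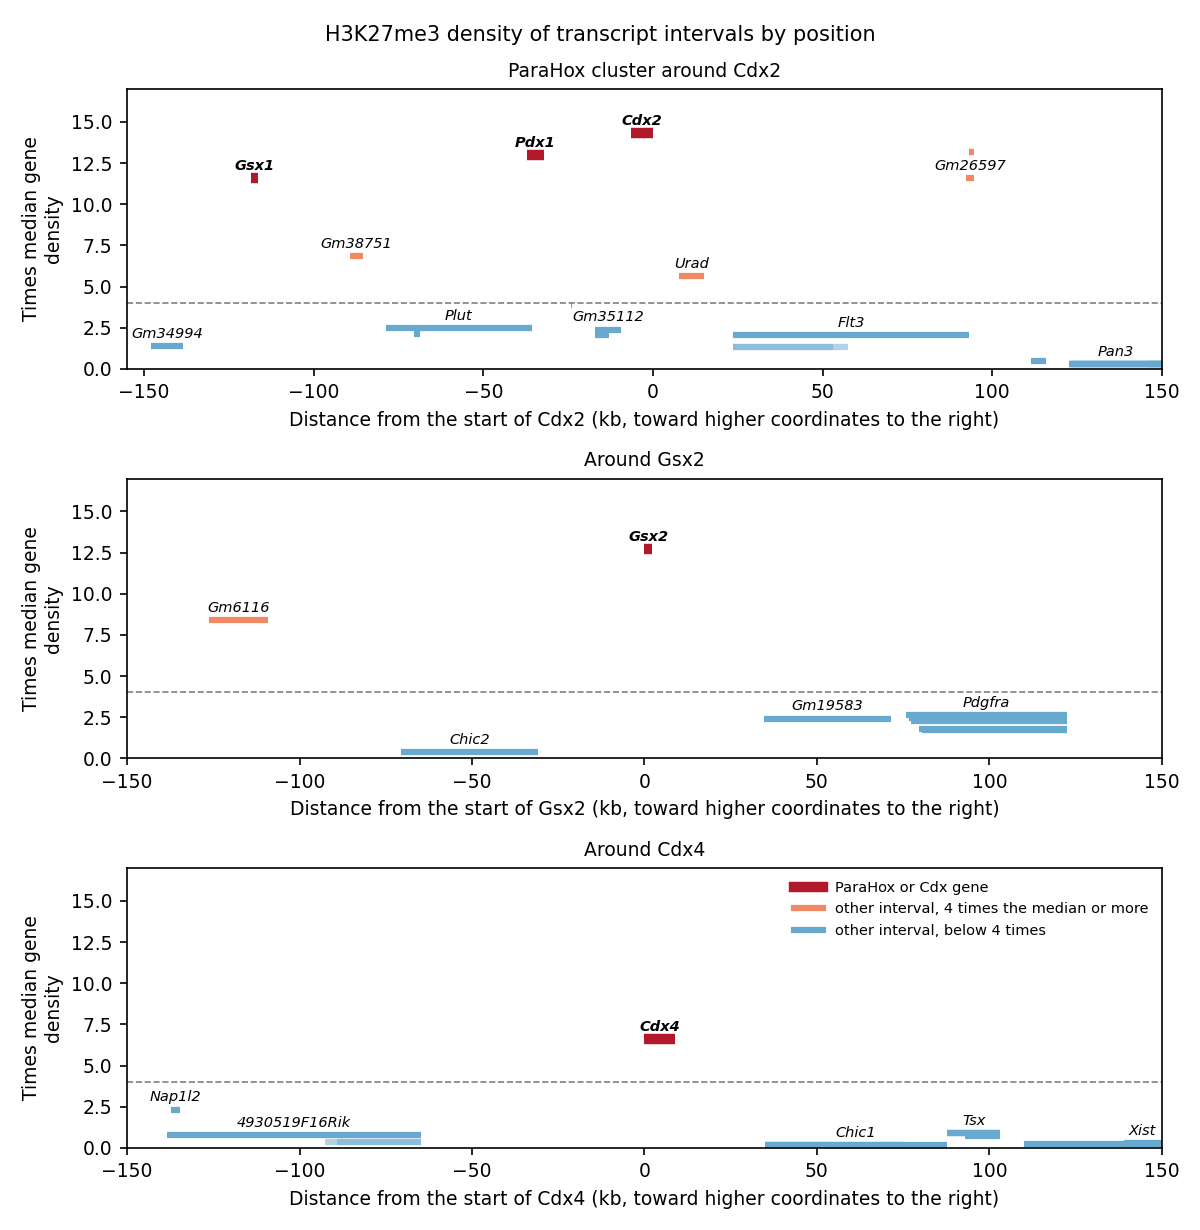
H3K27me3 density (times the median gene, y axis) of every interval within 150 kb of the start of Cdx2, Gsx2 and Cdx4, drawn to scale against the distance in kb (x axis). Bar width is the length of the interval, pale bars are intervals that match a gene too poorly to be named, and the dashed line is 4 times the median. The 3 ParaHox genes of the cluster stand at 11.6 to 14.3 times, above the intervals between them, and Cdx4 stands at 6.62 among neighbours at or below 2.32 times.

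Genes of similar level and pattern were sought by the Euclidean distance between log2 densities over the 4 libraries, among coding genes of at least 1000 bp more than 500000 bp from any member. Nearest to Cdx2 were Foxf1 (distance 0.0802), Mnx1 (0.0826) and Sox14 (0.108), regulators of mesoderm, motor neurons with pancreas, and neurons. Nearest to Pdx1 were Barhl2 (0.0631), Duoxa2 (0.0787) and C1qtnf4 (0.0797). Gsx2 was nearest to Bhlhe23 (0.0858), Hoxa11 (0.0866) and Gfi1 (0.0946), and Gsx1 to Hes5 (0.0813), Gm13889 (0.104) and Gm5294 (0.109). For Cdx4 they were Tex12 (0.132), Slc10a4 (0.179) and C2cd4a (0.189), so its nearest genes were further away than those of any other member. All points share the same 4 libraries.

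The genes that work with the members differed widely in average density over their intervals. A long gene can hold a dense start and fall below the limit, as Pdgfra did. Unmarked genes included long ones such as Meis2 (204486 bp), Tead4 (73671 bp) and Rfx6 (52670 bp). Short ones, such as Tbx6 (4066 bp) and Fgf4 (3858 bp), were unmarked too. The lists were not matched for length, and 14.5% of coding genes of 2000 to 9000 bp were marked. The shares below are descriptions beside the 5.78% of all named genes. Some genes, such as Pax6, Foxa2 and Hnf4a, are in more than a single list. Listed genes without a named interval were not measured. This left 14 of 28 posterior growth zone, 16 of 26 ventral forebrain, 22 of 30 pancreatic and 10 of 18 trophectoderm genes. It left 17 of 20 intestinal, 12 of 15 pluripotency, 9 of 15 housekeeping, 6 of 8 fibroblast and 4 of 8 primitive endoderm genes. Of 16 measured genes in the ventral forebrain list, 13 were marked, with a median of 9.26 times the median gene. The list was drawn around the Gsx factors and also holds dorsal forebrain genes, such as Emx1 (7.56) and Neurog2 (10.8). Dlx1 and Dlx2, homeobox genes of inhibitory neurons, stood at 13.8 each, Dlx5 at 12.5 and Dbx1 at 12.2, and the lowest were Gad2, a GABA synthesis enzyme (2.57), and Meis2 (1.64). Dlx1 and Dlx2 lie together on chromosome 2, and Dlx5 and Dlx6 on chromosome 6, so the 13 marked genes are not 13 separate loci.

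Of 14 measured genes of the posterior growth zone, where Cdx factors act, 9 were marked (median 9.56). Hoxd10 (15.4), Hoxd13 (15.0), Hoxa10 (14.7) and Evx2 (12.0) were the densest. Hoxd10, Hoxd13 and Evx2 lie together on chromosome 2, and Hoxa10, Hoxa13 and Evx1 on chromosome 6. The 9 marked genes thus do not stand for 9 separate loci. Tbx6, a paraxial mesoderm regulator, at 0.348 and Fgf4, an FGF that stem cells themselves make, at 0.277 were the least dense.

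Of 22 pancreatic and duodenal genes, 13 were marked (median 7.23). The transcription factor genes Ptf1a at 14.0, Mnx1 at 13.9 and Nkx6-1 at 13.3 were the densest. The hormone gene Gcg (1.15) and the nuclear receptor gene Nr5a2 (0.377) were lowest. Transcription factor genes were also among those not marked, such as Pax4 (3.81), Onecut1 (3.77) and Rfx6 (1.42), and the insulin gene Ins2 was marked (6.41).

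Trophectoderm genes, which share the blastocyst role of Cdx2, had 5 of 10 marked (median 3.86). Ascl2 stood at 11.4, Gata2 at 10.3, Tfap2c at 6.95 and Eomes at 6.33, and Tead4, an upstream regulator of Cdx2, at 1.07, with Plac1 at 1.02. Intestinal genes, many of them activated by Cdx2 in the gut, had 0 of 17 marked (median 1.16). Guca2b (2.82), Lgals4 (2.62), Fabp1 (2.08) and Isx (1.57) were the densest, and Gpa33 (0.356) and Cdh1 (0.316) the lowest.

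Pluripotency genes, which mark the cell type of the labels, had 0 of 12 marked (median 0.310), from Utf1 at 3.07, Prdm14 at 1.57, Nanog at 0.695 and Tbx3 at 0.532 to Lin28a at 0.236 and Tfcp2l1 at 0.230. Housekeeping genes had 0 of 9 (median 0.246), with B2m at 2.48, Gusb at 1.02, Eef2 at 0.961 and Actb at 0.272 highest, and Gapdh (0.183) and Pgk1 (0.127) lowest. Of markers of other cells, 1 of 6 fibroblast genes (Thy1, 6.05) and 2 of 4 primitive endoderm genes (Sox17, 12.3, and Foxa2, 10.8) were marked. Among other fibroblast genes Twist2 stood at 3.14, Col1a2 at 2.25, Lum at 1.21, Dcn at 0.782 and Col3a1 at 0.703, and of the other endoderm genes Col4a1 stood at 2.16. These counts measure the mark and not expression, so they do not show which cells were present.

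**Figure D3:**
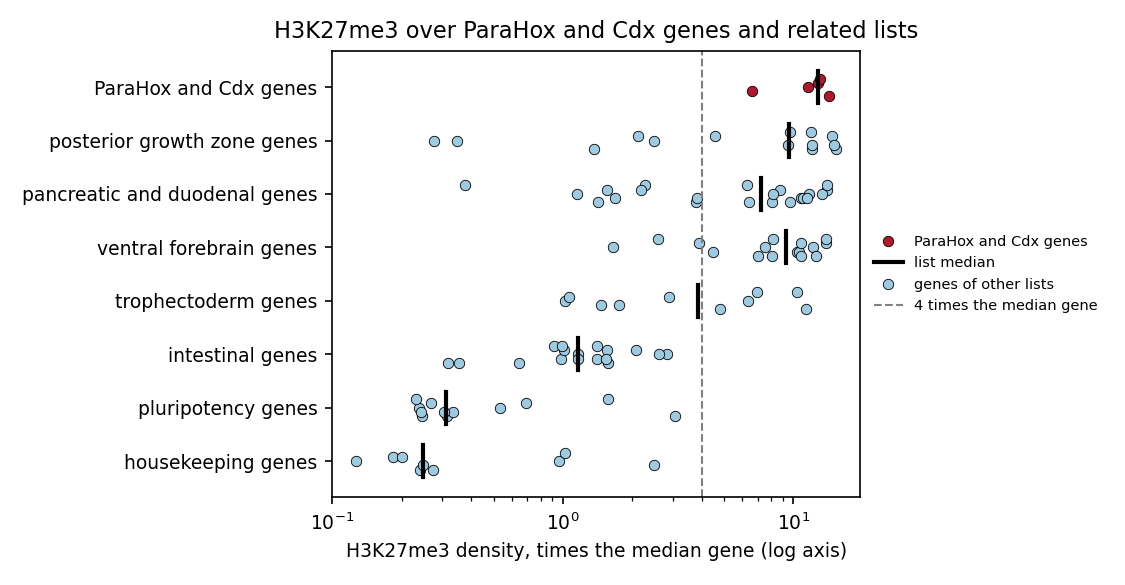
H3K27me3 density as times the median gene (log x axis) for each measured gene of 8 lists, with black bars for list medians and the dashed line at 4 times. The ParaHox and Cdx genes lie at 6.62 to 14.3 times, while all intestinal, pluripotency and housekeeping genes lie below the line.

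The share of marked genes did not rise steadily with promoter CpG content. Among coding genes of at least 1000 bp with a single listed promoter, 7.04% were marked with 10 to 19 CpGs, 6.56% with 5 to 9, 6.23% with 20 or more and 2.69% with 4 or fewer. Among the members, Cdx2 (18 CpGs) was the densest and Cdx4 (8) the least dense. Pdx1 (11), Gsx2 (17) and Gsx1 (19) lay between them. Gaps between neighbours among these 3 were below the larger SD over libraries, which includes the difference between clones.

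The next question was whether 2 h of RAF-ERK activation changed the mark over these genes. No member passed the test over all intervals. Followed within each clone with edgeR's TMM scaling factors, Cdx4 was the member lower at 2 h beyond counting error in both. In clone B this was by a narrow margin that depends on the scaling. Of the paired fits it was called in 1 alone, that over all marked intervals with overlapping ones included (adjusted p = 0.0175 by edgeR), and not with 1 interval per marked gene (adjusted p = 0.0970 by edgeR). Changes are log2 ratios of 2 h over 0 h from edgeR's quasi-likelihood test with Benjamini-Hochberg adjustment over 50037 intervals (n = 2 libraries per time). Of those intervals 0% were called, with 188 at an unadjusted p under 0.05, and DESeq2 also called 0, with 2 at that level. All 5 adjusted p-values rounded to 1.

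The change was 0.10 for Gsx1 (SE 0.17, 95% interval −0.30 to 0.51) and −0.03 for Gsx2 (SE 0.15, −0.39 to 0.33). It was 0.0020 for Pdx1 (SE 0.12, −0.29 to 0.29), 0.021 for Cdx2 (SE 0.14, −0.31 to 0.35) and −0.15 for Cdx4 (SE 0.16, −0.52 to 0.21). The signs for Pdx1 and Cdx2 turned under other scalings, and each of the 5 signs turned in at least 1 of the fits without a library. With clone as a block the intervals narrowed to −0.12 to 0.12 for Pdx1, −0.09 to 0.13 for Cdx2, −0.06 to 0.26 for Gsx1 and −0.18 to 0.13 for Gsx2.

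Cdx4 had 1969 counts in clone A and 1550 in clone B at 2 h, against 1735 and 1569 at 0 h. After scaling with TMM factors this was a log2 change of −0.19 in clone A (95% counting interval −0.29 to −0.10). In clone B it was −0.11 (−0.21 to −0.01). Cdx4 was thus lower at 2 h in 2 of 2 clones. The upper limit in clone B, −0.0078, depends on that clone's factors (1.016 at 2 h and 0.997 at 0 h). No counting interval was computed on column totals. In the paired fit its change was −0.15 (SE 0.06, 95% interval −0.27 to −0.03, unadjusted p = 0.0142 by edgeR), with an adjusted p that rounded to 1. The call depended on fits limited to part of the features, chosen after seeing the data. Each such fit also had its own scaling factors and estimates of spread. With factors from marked intervals over all intervals and clone as a block, Cdx4 stood at −0.18 and was not called (adjusted p = 0.842 by edgeR). Which of these differences made the call was not tested. Among all 2456 marked intervals with clone as a block, Cdx4 was called lower (−0.18, SE 0.05, adjusted p = 0.0175 by edgeR), with 0.366% of those intervals called lower. That fit counts overlapping intervals of a gene several times, and with 1 interval for each of 1158 marked genes Cdx4 was not called (−0.18, SE 0.05, adjusted p = 0.0970 by edgeR). With genes at 2 times the median or more it was not called either (−0.17, adjusted p = 0.0826 by edgeR). Leaving out the clone A library at 0 h turned the direction (0.029), a fit in which clone B stands alone at 0 h. The neighbour Chic1 gave 0.09 and Nap1l2 −0.17.

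For the other members, clone A and clone B gave 0.10 and 0.11 for Gsx1, 0.00080 and 0.044 for Cdx2, −0.0048 and 0.0089 for Pdx1, and −0.078 and 0.030 for Gsx2. Each of these 8 counting intervals included 0. In the cluster, changes between 2 h and 0 h ran from −0.12 for Mir7k (110 bp, SE 0.39) to 0.28 for Gm38750 (SE 0.19), and none passed. None of the related lists had a gene called either, and their median changes lay between −0.03 for intestinal and 0.02 for trophectoderm genes.

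The last comparison set clone A against clone B, the other division of the libraries in the labels. Each member was higher in clone A at both times, and by between 0.19 and 0.34 on the log2 scale with the times together, though Pdx1 turned to −0.014 with factors taken from marked intervals. edgeR called all 5 higher (n = 2 libraries per clone, 1 of each time). Calls made up 27.5% of the 50037 intervals, with 17.3% higher and 10.3% lower, and of 1160 marked genes 52.4% were called higher. The difference was 0.34 for Gsx1 (SE 0.08, adjusted p = 0.000127), 0.31 for Cdx4 (SE 0.06, adjusted p = 9.78e-06) and 0.27 for Gsx2 (SE 0.08, adjusted p = 0.00228). It was 0.27 for Cdx2 (SE 0.06, adjusted p = 2.93e-05) and 0.19 for Pdx1 (SE 0.06, adjusted p = 0.00831).

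Within each time clone A was again the higher for every member. At 2 h clone A exceeded clone B by 0.33 for Gsx1, 0.27 for Cdx4, 0.24 for Cdx2, 0.22 for Gsx2 and 0.18 for Pdx1. At 0 h the values were 0.35 for Gsx1 and Cdx4, 0.33 for Gsx2, 0.29 for Cdx2 and 0.20 for Pdx1. All 10 counting intervals lay above 0.

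The size of this difference depended on the scaling. The median over all marked genes was also higher in clone A, by 0.19, while that over all intervals was 0.00013. With factors taken from marked intervals, a choice made after seeing the data, the median of all intervals moved to −0.20 and calls to 2700 higher and 21922 lower. None of the 5 members was then called, and they stood at 0.14 for Gsx1, 0.10 for Cdx4, 0.065 for Gsx2, 0.062 for Cdx2 and −0.014 for Pdx1. Whether clone A carried more mark over marked genes or its libraries were richer in marked chromatin cannot be told apart. Without either clone B library, Pdx1 also lost its call (0.17 without the 2 h library, adjusted p = 0.149 by edgeR, and 0.18 without the 0 h library, adjusted p = 0.113), as did Gsx2 without clone B at 0 h (0.25, adjusted p = 0.0526).

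Of the 29 neighbours, 12 were called higher in clone A, 1 lower and 16 were not called. Over all intervals, 17.3% were called higher and 10.3% lower. In the cluster and on either side of it, Gm38751 (0.49), Gm34994 (0.32), Gm26597 (0.25), Urad (0.24), Flt3 (0.24) and Plut (0.23) were called higher. Not called there were Mir7k (0.39), Gm38750 (0.20), Gm35112 (0.086), D5Ertd605e (−0.022), Lnx2 (−0.039), Polr1d (−0.041) and Mtif3 (−0.30). Near Cdx4, 4930519F16Rik (0.56), Nap1l2 (0.46), Tsix (0.29) and Xist (0.58) were called higher, while Chic1 (−0.18), Gm5126 (−0.021), Gm39529 (−0.0025) and Tsx (−0.00037) were not called. Beside Gsx2, Gm6116 (0.36) and Gm19583 (0.20) were called higher and Kit (−0.41) lower. Pdgfra (0.11), Gm32304 (0.050), Chic2 (0.044), Gm15984 (−0.15) and Mir7025 (−0.15) did not pass.

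Shares called higher in clone A were 17.3% of all intervals and 52.4% of marked genes. Beside these, 10 of 14 posterior growth zone genes, 10 of 16 of the ventral forebrain list and 8 of 22 pancreatic genes were called higher. The counts were 3 of 17 for intestinal, 3 of 12 for pluripotency, 2 of 10 for trophectoderm, 2 of 4 for primitive endoderm, 1 of 6 for fibroblast and 0 of 9 for housekeeping genes. Beside the 10.3% of all intervals called lower, 5 intestinal genes, 2 pancreatic genes and 2 fibroblast genes were called lower, and 1 each of the ventral forebrain, trophectoderm and housekeeping lists. None of the posterior growth zone, pluripotency or primitive endoderm genes was called lower. Genes of a list that lie together, such as Hoxd10, Hoxd13 and Evx2 or Dlx1 and Dlx2, are not separate instances.

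**Figure D4:**
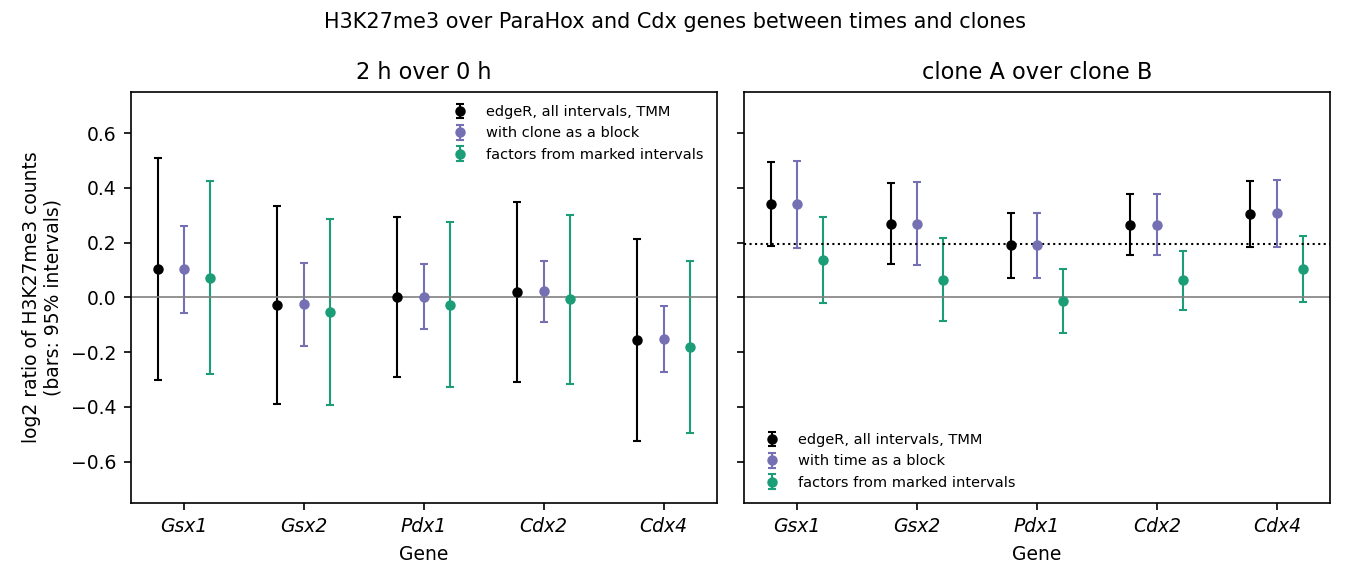
Log2 ratio of H3K27me3 counts (y axis) for each ParaHox and Cdx gene, 2 h over 0 h on the left and clone A over clone B on the right, with bars for 95% intervals and colours for 3 fits. The dotted line marks the median of all marked genes between clones (0.19). Over time the intervals include 0 except for Cdx4 with clone as a block, and between clones they exclude 0 except with factors from marked intervals.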

How the data were processed

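H3K27me3 ChIP-seq is available as the authors' table of read counts, whole numbers in each library over transcript-wide intervals (introns included), per the file headers. The submitters' processing notes name Bowtie2, bedtools and mm10. No source used here gives filters or strand handling. Overlapping intervals share reads. Column totals ran from 70378127 to 92518605, with 643 to 3234 counts per member and library, a counting error of 3.94% to 1.76%. Counting intervals (95%, exact binomial) cover counting error only. The 4 input libraries were not analysed here, and 16 further columns of values derived from the counts were not used. Coordinates are 1-based.

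Intervals were named where overlap over union with a RefSeq gene reached 0.5 and beat the next gene by 0.2, which named 43793 (86.9%), and a gene's value comes from its best interval. Counts were tested with edgeR 4.0.16 (TMM, filterByExpr, R 4.3.3), checked on simulated counts, with DESeq2 1.42.0, other factors and filters, blocks and left-out libraries as alternatives. SE is the log2 value over the root of F.

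Genes named are the members, the 4 nearest named genes on each side, the 4 densest and 2 least dense of each list, and the 3 genes most like each member. Some genes that this rule names are not reported here. Densities of further fibroblast and endoderm markers, of Ins2, Emx1 and Neurog2 and of X-linked genes were added after their values were seen. Members, lists and the limit of 4 times the median were chosen with earlier results of these data known.

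Pairing comes from the labels, which give each clone at 2 h and at 0 h. Deviations from the mean of each time were correlated within clones (r = 0.530 over 50037 intervals, which are no independent replicates). P-values measure the spread between these libraries, which may be technical.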

Additional observations from a re-analysis of the deposited data

Results flagged for a closer look

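Over 2 h of 4OHT, Gsx2 and Pdx1 moved in opposite directions in the 2 clones. Clones A and B gave log2 changes of −0.078 and 0.030 for Gsx2, a difference of −0.11, and of −0.0048 and 0.0089 for Pdx1, a difference of −0.014. Neither difference was tested, since each clone had 1 library at each time, and each clone's 95% counting interval included 0.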

How the results depend on the processing

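All 5 genes stayed marked with TMM effective totals in place of column totals and without each library, and 4 stayed above a limit of 8 times the median. Set against the median coding gene of at least 1000 bp, Cdx2 stood at 18.4, Pdx1 at 16.8, Gsx2 at 16.4, Gsx1 at 15.0 and Cdx4 at 8.53 times. At a limit of 2 times, marked genes numbered 3 for intestinal, 1 for pluripotency, 1 for housekeeping, 3 for fibroblast and 4 for primitive endoderm genes, and at 8 times 2 for trophectoderm and 0 for fibroblast genes.

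Between 2 h and 0 h, calls were 0 higher and 0 to 1 lower over the fits without each library. In paired fits on part of the genes, chosen after seeing the data, they were 1 higher and 0 lower for marked genes, 1 and 0 at 2 times the median, and 5 and 2, in all 7, at 8 times. Over all marked intervals, overlapping ones included, they were 11 and 9, in all 20. Cdx4 (−0.18, adjusted p = 0.0175 by edgeR) was called there and in no other fit. No other member was called in any fit. With clone as a replicate block the count of calls was 0 (2078 at an unadjusted p under 0.05), and no member's call changed. Without each library in turn the change ran from −0.073 to 0.29 for Gsx1, −0.19 to 0.14 for Gsx2, −0.10 to 0.10 for Pdx1, −0.12 to 0.17 for Cdx2 and −0.33 to 0.029 for Cdx4. Pdx1 turned to −0.0066 with DESeq2 or its size factors and to −0.026 with factors from marked intervals (−0.027 under the block). It stood at −0.027, −0.019 and −0.014 in the paired fits on genes at 4, 2 and 8 times the median, and at −0.027 over all marked intervals. Cdx2 turned to −0.0070 with factors from marked intervals, with or without the block, to −0.0072 among marked genes alone and to −0.0076 over all marked intervals. The cause of these turns was not tested.

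Between clones, calls numbered 13765 (8633 higher and 5132 lower). DESeq2 gave 8751 (5704 and 3047), and 1 interval per gene, with fewer intervals tested, 5291 (3181 and 2110). Factors from marked intervals gave 24622 (2700 and 21922), and 22504 (2570 and 19934) with time as a block. Without each library the count ran from 9476 to 11838 (5252 to 8087 higher and 3414 to 4398 lower). Without each library the difference was 0.28 to 0.39 for Gsx1, 0.23 to 0.31 for Gsx2, 0.17 to 0.19 for Pdx1, 0.24 to 0.27 for Cdx2 and 0.21 to 0.40 for Cdx4. With factors from marked intervals Gsx1 stood at 0.14 (0.13 with time as a block), Cdx4 at 0.10 in both fits, Gsx2 at 0.065 in both, Cdx2 at 0.062 in both and Pdx1 at −0.014 in both, none of them called.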
